A study of Rattus norvegicus with 12 samples.

Results

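miR-298 and miR-296 are neighbouring microRNAs (miRNAs) of an imprinted stretch of the rat genome, and 3 of the 375 miRNA assays on a TaqMan low density card measured them: miR-298, miR-296-5p and miR-296-3p. The assays were found by their names on the card, and the 3 were chosen by the values described here, that is, by the rise of miR-298 in stellate cells and the loss of miR-296-3p in tissue. Their own values are therefore given as a description, with no test. The card was run on 12 samples from the medial entorhinal cortex (MEC) of Long Evans rats. For 10 of them, pups received the retrograde tracer DiO in the dentate gyrus on postnatal day (P) 2, and the MEC was dissociated on P4 or P5 and passed through a cell sorter. The 5 stellate samples hold the DiO-positive cells, which the study took as stellate neurons projecting to the dentate gyrus. The 5 non-stellate samples hold the DiO-negative cells of the same dissociated tissue. The replicate numbers 1 to 5 pair the stellate with the non-stellate samples. The 2 tissue samples are whole MEC dissected on P23, placed in RNAlater and extracted with another kit, without dissociation, tracer or sorting, so that age and preparation cannot be told apart in any comparison with tissue. A description field gives non-stellate samples 3 and 5 another name than their remaining labels do, and they were kept with the remaining labels. In these bulk samples, fewer cells of a type and less RNA per cell cannot be told apart.

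A miRNA is cut from a hairpin precursor whose 5' and 3' arms can each give a mature strand (5p and 3p). One strand usually enters the silencing complex and the other is mostly degraded, and the bases of the seed select the target mRNAs. miR-296 and miR-298 lie in the Gnas cluster, an imprinted region in which an antisense transcript made from the paternal chromosome is thought to carry both. miR-298 is known as a repressor of Bace1, the beta-secretase that starts amyloid beta production. miR-296 is known from endothelial cells, where it takes part in angiogenesis, and from differentiating embryonic stem cells, where it acts with miR-134 and miR-470 on pluripotency factors such as Nanog.

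The mature sequences below, from RefSeq in build GRCr8, are shown because the 3 assays separate 2 neighbouring hairpins and both arms of the second. Capitals mark the seed, bases 2 to 8 from the 5' end. The card's name for miR-298 gives no arm, so both of its strands are printed.
rno-miR-298-5p: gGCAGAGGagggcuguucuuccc
rno-miR-298-3p: aGGAACUAgccuucucucugcu
rno-miR-296-5p: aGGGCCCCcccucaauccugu
rno-miR-296-3p: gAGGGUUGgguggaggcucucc
The 4 seeds differ from one another, and none of them occurs as the seed of another of the 724 rat mature miRNAs in the same table.

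Both hairpins are annotated on the minus strand of chromosome 3. Mir298 spans 82 bases at chr3:183470522-183470603 and Mir296 spans 78 bases at chr3:183470069-183470146, with 375 bases between them. The hairpin of miR-296 is printed with its 5p and then its 3p strand in capitals, because the loss described further on concerns the second of these.
Mir296: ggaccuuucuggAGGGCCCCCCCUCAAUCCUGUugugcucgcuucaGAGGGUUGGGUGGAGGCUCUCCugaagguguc
The nearest annotated part of Gnas, which encodes the stimulatory G protein alpha subunit, begins 19044 bases further along, at chr3:183489648-183554570.

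Levels are cycle thresholds (Ct), the PCR cycle at which an assay crosses its detection limit. Ct is a log2 scale that falls as abundance rises, and the deposited tables hold 40 for an undetermined well. Each level is read on up to 3 scales: relative to U6, a small nuclear RNA in 4 wells of the card (U6-scaled, the authors' choice), relative to the card median, taken over the 176 assays that no sample left undetermined (median-centred), and relative to 4 other reference RNAs. Differences are given as log2 units, with more abundant counted as positive. The card read 234 to 260 determined assays in stellate samples, 203 to 241 in non-stellate samples and 292 and 302 in tissue. The median Ct was 27.96 to 29.51 in stellate, 28.88 to 30.94 in non-stellate and 23.7 in both tissue samples, a gap of several cycles that U6, at 16.5 to 19.02, 17.74 to 20.23 and 15.59 to 15.96, did not show to the same extent. No molecule count exists for such cards. Repeat wells of U6 within a sample had a pooled SD of 0.366 cycles. Over 230 assays with a Ct under 30 in tissue, the 2 tissue samples differed by an SD of 0.389 cycles, less than the 0.518 of a difference between single U6 wells, so these samples may be no more than technical repeats.

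miR-298 was more abundant in the stellate than in the non-stellate sample of all 5 pairs. Its raw Ct in stellate samples 1 to 5 was 28.99, 27.42, 30.11, 28.36 and 28.95. In non-stellate samples 1 to 5 it was 31.31, 29.58, 32.43, 30.13 and 33.06, and in tissue 27.35 and 27.19. Every stellate sample crossed the threshold before its own pair partner, although stellate sample 3 was later than non-stellate sample 2. The U6-scaled Ct averaged 11.1 ± 1.30 (SD, n = 5) in stellate, 12.8 ± 1.16 (SD, n = 5) in non-stellate and 11.5 ± 0.148 (SD, n = 2) in tissue. On this scale the stellate range, 9.26 to 12.45, overlapped the non-stellate range, 11.64 to 14.51, and the tissue values, 11.39 and 11.60, lay inside the stellate range.

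**Figure D1:**
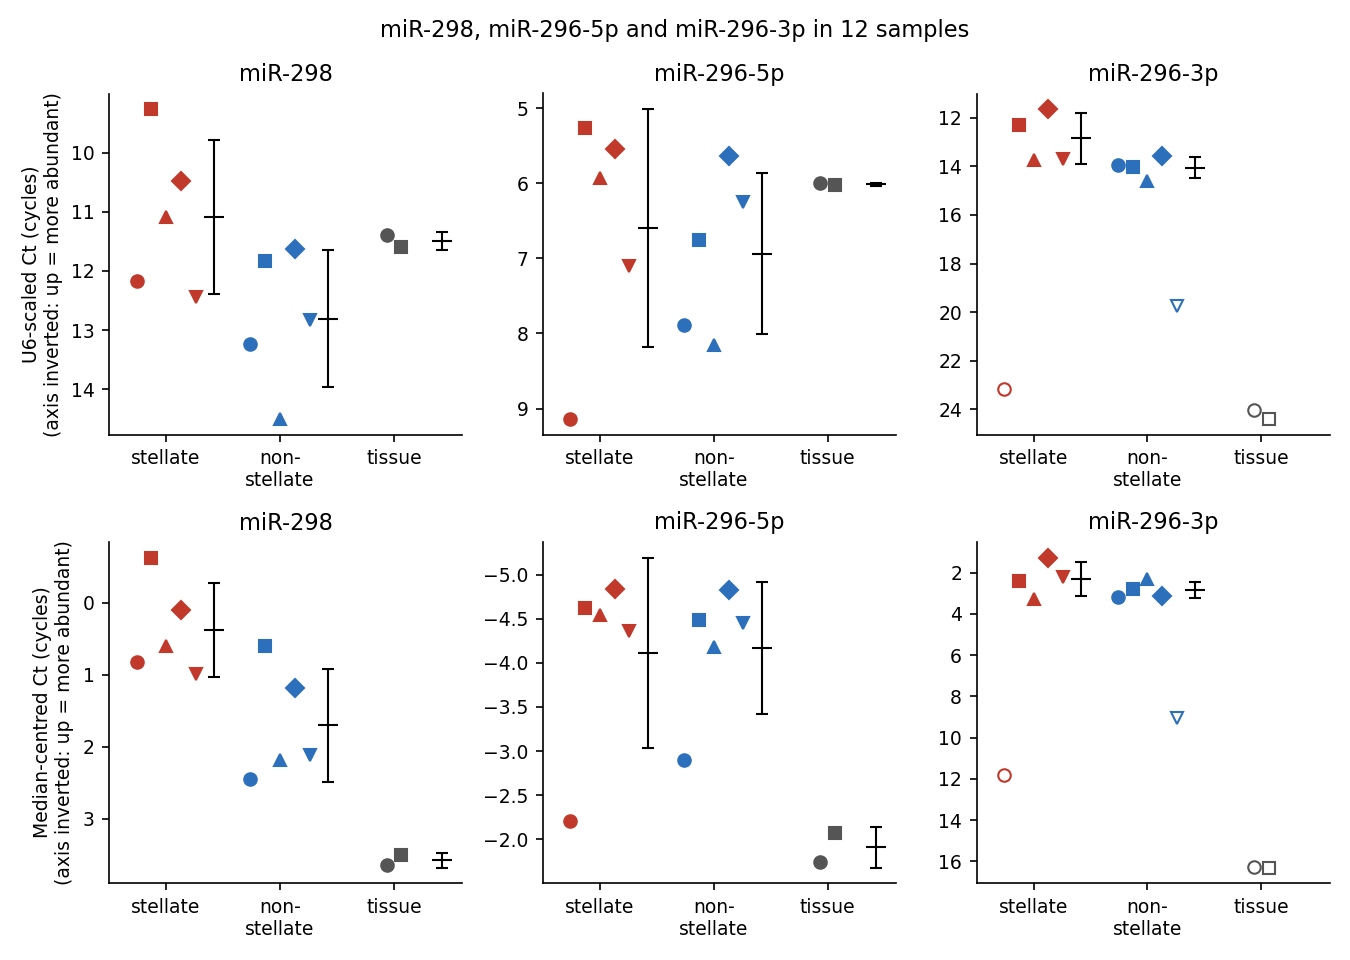
Levels of miR-298, miR-296-5p and miR-296-3p in each sample, as U6-scaled Ct (top) and median-centred Ct (bottom), in cycles, with the axes inverted so that up is more abundant. Marker shapes stand for replicate numbers, open markers for undetermined wells at the placeholder of 40, and black bars for mean ± SD of determined samples; after median centring the tissue values of miR-298, 3.65 and 3.50, lie below all sorted samples.

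The spread of the pair differences depended on the scale. Relative to U6 the stellate sample exceeded its partner by 1.07, 2.58, 3.42, 1.16 and 0.38 log2 units, a mean of 1.72 ± 1.24 (SD, n = 5 pairs). The median of all tested assays moved along with these, at -0.45, 1.27, 1.77, 0.02 and -0.60 in pairs 1 to 5. Relative to the card median, which removes that movement, the differences of miR-298 were 1.62, 1.22, 1.57, 1.07 and 1.13, a mean of 1.32 ± 0.25 (SD, n = 5 pairs), or 2.51-fold with single pairs between 2.11-fold and 3.08-fold. The pairs were close to one another here: the SD of 0.25 was the 14th smallest of 176 assays, whose median SD was 0.66. Relative to the 4 other reference RNAs the differences were 2.70, 1.86, 2.14, 1.31 and 2.07. The median of all tested assays was positive there too, at 1.18, 0.55, 0.49, 0.17 and 1.09.

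**Figure D2:**
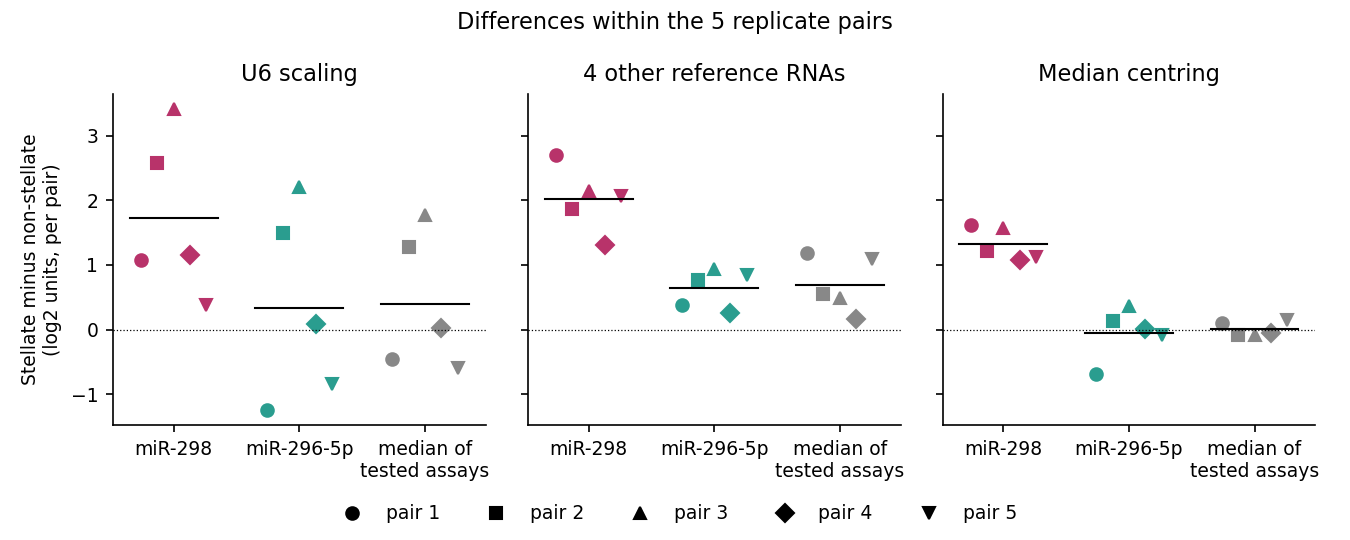
Stellate minus non-stellate difference in log2 units within each of the 5 replicate pairs (marker shapes), for miR-298, miR-296-5p and the median of the 222 tested assays, on the 3 scales; horizontal lines are means. All 5 pairs of miR-298 lie above 0 on each scale, while miR-296-5p has pairs on both sides of 0 relative to U6 and to the card median. Relative to the 4 other reference RNAs the median of tested assays lies above 0 in all 5 pairs as well.

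Across the card, limma (Benjamini-Hochberg adjusted, threshold 0.05) called 0 of 222 tested assays between stellate and non-stellate cells, a percentage called of 0, and 16 had an unadjusted p under 0.05. The replicate block left that count at 0, and 26 then had an unadjusted p under 0.05. After median centring 0 were called too, and 28 had an unadjusted p under 0.05. With the replicate block on that scale these were 0 and 48, and the smallest adjusted p of limma was 0.0692. The direction of miR-298 in every pair was shared with 20 other assays: 21 of the 176 assays determined in all samples were higher in all 5 pairs after median centring, and 47 had the same sign in all 5. Higher in all 5 pairs were 18 relative to U6 and 65 relative to the 4 other reference RNAs. By size miR-298 stood 24th of 222. Because its rise chose it, nothing is read from these places.

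The summed levels of marker miRNAs of vascular, blood and choroid plexus cells were higher in the stellate sample of most pairs. The neuronal sum was lower. The summed level of 4 vascular miRNAs, all determined in every stellate sample, was 1.25 to 4.42 log2 units above the card median in stellate samples and 1.17 to 2.74 in non-stellate samples. Stellate samples 1 and 4, at 4.40 and 4.42, set the upper end, and the other 3 read 1.25 to 1.81. Only in pair 2 was the stellate sum the lower one, at 1.81 against 1.87. Of 5 blood and microglia miRNAs, 3 were determined in every sorted sample, at a sum of 1.74 to 5.10 in stellate and 0.27 to 2.02 in non-stellate samples, while miR-451, an erythrocyte miRNA, and miR-142-5p were undetermined in all 10. Stellate samples 1 and 4 were both at 5.10, and the other 3 at 1.74 to 2.16. The stellate sample exceeded its partner in every pair. Pairs 1 to 5 read 5.10 against 2.02, 2.16 against 1.82, 1.74 against 0.96, 5.10 against 1.87, and 1.82 against 0.27. Of 6 miRNAs of choroid plexus and ependyma, 4 to 5 were determined, at 2.16 to 4.24 and 1.88 to 2.51. Their stellate sum was the higher one except in pair 5, at 2.16 against 2.26. The 5 neuronal miRNAs were determined in all 12 samples, at 7.57 to 8.74 in stellate, 8.12 to 9.02 in non-stellate and 8.59 to 8.65 in tissue. Their stellate sum was lower in every pair, though such a sum is set mostly by its most abundant members. Among the 5, miR-124 went the other way, with a mean stellate minus non-stellate difference of 0.57 after median centring. Differences of the remaining members are not given singly. Pairs 1 to 5 read 8.29 against 8.65, 8.06 against 8.54, 7.57 against 8.12, 7.58 against 9.02, and 8.74 against 8.98. Of 2 oligodendrocyte miRNAs, at most 1 was determined in any sorted sample and both in tissue. For miR-298 the median-centred differences were 1.62 and 1.07 in pairs 1 and 4. They were 1.22, 1.57 and 1.13 in pairs 2, 3 and 5, where blood and neuronal sums differed in the same directions. The part of these cell types in the difference was not tested.

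In tissue the position of miR-298 turned on the scale. Relative to U6 it was 0.45 ± 0.90 (SE) log2 units above the mean of both sorted groups, and relative to the 4 other reference RNAs 0.08 below it, at -0.08. Relative to the card median it was -2.53 ± 0.53 (SE), with tissue values of 3.65 and 3.50 against 0.82, -0.63, 0.61, 0.10 and 0.99 in stellate and 2.44, 0.59, 2.18, 1.18 and 2.12 in non-stellate samples. Tissue then lay outside all 10 sorted samples. For the whole card the same change of scale moved the median difference of the 220 tested assays from 3.04 to 0.05, so a value of 0.45 relative to U6 lay well under the middle of the card. Relative to U6, limma called 139 assays higher in tissue (63.2%) and 2 lower (0.909%). After median centring it called 53 higher (24.1%) and 55 lower (25%).

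miR-296-5p, the strand of its hairpin that was read first on the card, had pair differences of both signs between the sorted groups relative to U6 and to the card median, and of 1 sign relative to the 4 other reference RNAs. Its raw Ct was 25.96, 23.43, 24.96, 23.42 and 23.60 in stellate samples 1 to 5. In non-stellate samples it was 25.97, 24.49, 26.08, 24.13 and 26.49, and in tissue 21.96 and 21.62. It was determined early in all 12 samples, and the sorted groups overlapped. After median centring the pair differences were -0.69, 0.13, 0.37, 0.01 and -0.09, a mean of -0.06 ± 0.40 (SD, n = 5 pairs). Relative to U6 they ran from -1.25 to 2.21 and followed the card median of the same pair. Relative to the 4 other reference RNAs they were 0.38, 0.77, 0.93, 0.25 and 0.85, a mean of 0.64 ± 0.30 (SD, n = 5 pairs), with the median of all tested assays at 1.18, 0.55, 0.49, 0.17 and 1.09.

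Replicate 1 stood apart for miR-296-5p in both sorted groups. The median-centred Ct was -2.21 in stellate sample 1 against -4.36 to -4.84 in the other 4, and -2.90 in non-stellate sample 1 against -4.18 to -4.83. Tissue, at -1.75 and -2.07, was less abundant than any sorted sample on this scale, with stellate sample 1 its nearest neighbour. The difference of tissue from both sorted groups was -2.24 ± 0.68 (SE) after median centring and 0.75 ± 0.99 (SE) relative to U6. Against stellate cells alone it was -2.21 and 0.58 on these scales, where miR-298 had -3.20 and -0.40.

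Setting one neighbour against the other within a sample needs no reference RNA. miR-298 crossed the threshold later than miR-296-5p by 3.03, 4.00, 5.15, 4.94 and 5.35 cycles in stellate samples 1 to 5, a mean of 4.49 ± 0.97 (SD, n = 5). The same gap was 5.34, 5.09, 6.36, 6.0 and 6.57 cycles in non-stellate samples, a mean of 5.87 ± 0.64 (SD, n = 5), and 5.39 and 5.57 in tissue. The gap was smaller in the stellate sample of every pair, by 2.31, 1.09, 1.21, 1.06 and 1.22 cycles, a mean of 1.38 ± 0.53 (SD, n = 5 pairs), or 1.14 ± 0.08 (SD, n = 4) without pair 1. The larger difference of pair 1 included the low miR-296-5p of stellate sample 1. Tissue lay inside the non-stellate range. As assays differ in efficiency, the size of such a gap is no ratio of molecules, whereas its change between samples is a relative change.

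miR-296-3p, the other strand, was read late and not everywhere. It was determined in stellate samples 2 to 5 at a Ct of 30.44, 32.77, 29.52 and 30.18, and in non-stellate samples 1 to 4 at 32.05, 31.77, 32.54 and 32.07. It was undetermined in stellate sample 1, in non-stellate sample 5 and in both tissue samples. The groups overlapped, since stellate sample 3 was later than all 4 non-stellate values. Only pairs 2, 3 and 4 had both members determined, with median-centred differences of 0.39, -0.98 and 1.86, of mixed sign, and U6-scaled differences of 1.75, 0.87 and 1.94. The assay passed the filter on undetermined wells for the sorted samples (2 of 10) and not for the fit with tissue (4 of 12), so it has no place among the 220 assays tested there.

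miR-296-3p was undetermined in both tissue samples, in which the card read 292 and 302 assays. Of 210 assays determined in at least 8 of the 10 sorted samples, miR-296-3p was the 1 that was undetermined in both tissue samples. The assay was chosen for that loss, and the cutoff of 8 equals its own count, so nothing is read from this place. The strand partner miR-296-5p had its lowest raw Ct of all in the tissue samples. The 2 sorted samples without miR-296-3p read 63 (stellate 1) and 87 (non-stellate 5) assays at a Ct of 32 or more. Its determined values elsewhere ran from 29.52 to 32.77. Tissue read 29 assays at a Ct of 32 or more in each sample. The cause of the loss was not tested. With 40 entered for the undetermined wells the U6-scaled difference of tissue from sorted cells would be -9.17, a number set by the placeholder.

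The loss can be set against the strand partner, under an assumed limit for undetermined wells. In the 8 samples with both strands determined, miR-296-3p came 6.91 ± 0.73 cycles (SD, n = 8) after miR-296-5p. The values were 7.02, 7.81, 6.10 and 6.58 in stellate samples 2 to 5 and 6.07, 7.28, 6.46 and 7.95 in non-stellate samples 1 to 4. The stellate and non-stellate values overlapped. Undetermined wells were set at 38.2, the highest determined Ct of the whole card. The gap was then 12.27 cycles in stellate sample 1, 11.74 in non-stellate sample 5, and 16.27 and 16.61 in tissue. These are not strict lower bounds, since a lower limit gives smaller gaps. The highest determined Ct was 37.2 in stellate sample 1, 37.7 in non-stellate sample 5, and 35.4 and 36.3 in tissue. With wells set at 38.2, all 4 gaps lay above the highest determined gap. The mean gap of the tissue samples then exceeded the mean of the 8 samples by 9.53 cycles.

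Other hairpins with both strands on the card give the scale of such a shift. Of 18 hairpins with both strands determined in at least 5 sorted samples, 17 had both determined in both tissue samples, and miR-296 was the remaining 1. The change of the 3p minus 5p gap from sorted cells to tissue ran from -2.19 cycles for miR-129 to 5.13 for miR-409, with a median of 0.71. The median SD of this gap among sorted samples was 0.97. With undetermined wells set at 38.2, the value for miR-296 lay beyond the 17 others, as the choice of miR-296-3p for its loss already fixed in direction.

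**Figure D3:**
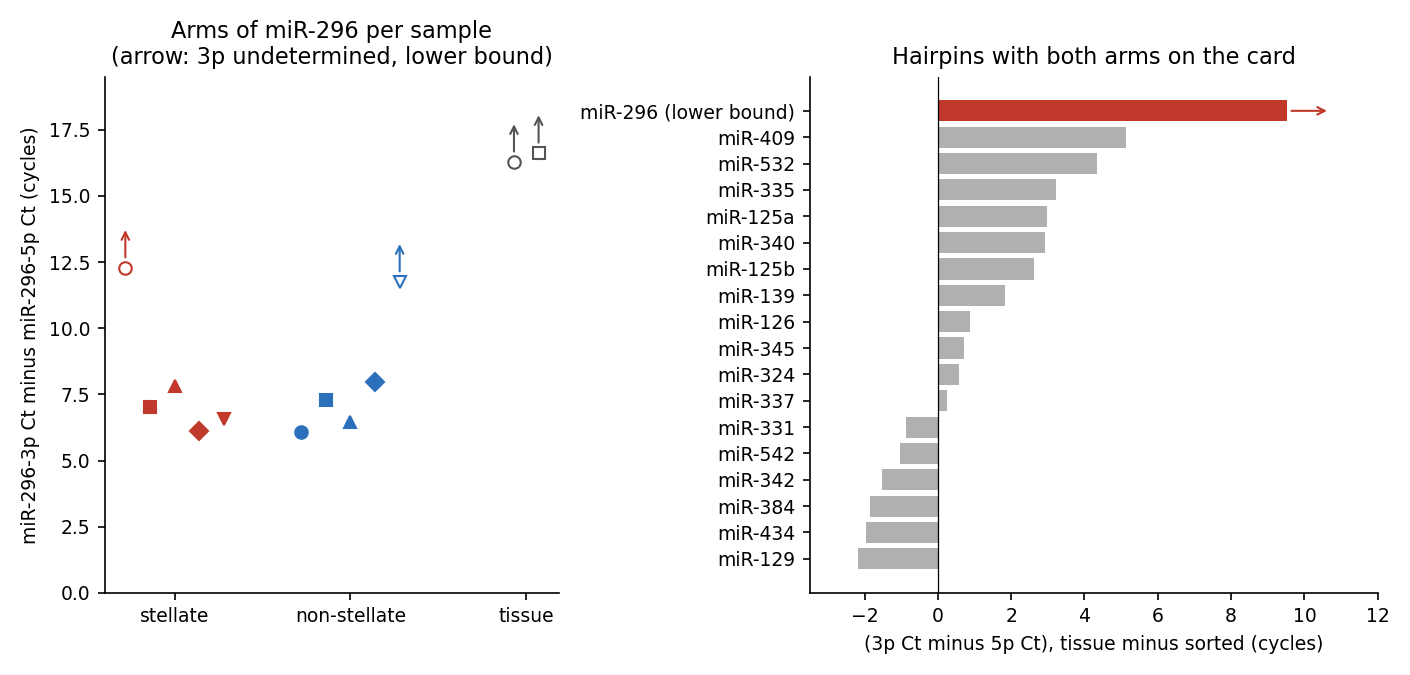
Left, miR-296-3p Ct minus miR-296-5p Ct in cycles per sample. Open markers with arrows are samples with miR-296-3p undetermined and set at a Ct of 38.2, so they are bounds only under that limit. Right, the change of the 3p minus 5p gap from the mean of sorted samples to the mean of tissue, in cycles, for 17 hairpins (grey). The value of 9.53 for miR-296 (red) rests on the same limit.

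Among the 175 other assays determined in all 10 sorted samples, the pattern most like that of miR-298 was that of miR-127, a miRNA of the imprinted Dlk1-Dio3 region on another chromosome. Over the 10 sorted samples the median-centred values of the 2 assays had Pearson's r = 0.923 and Spearman's rho = 0.879, as a description, since the samples share pairs, cards and pre-amplification. Within the stellate samples r was 0.716 and within the non-stellate samples 0.958, and it was 0.903 without replicate 1. miR-127 exceeded its partner by 0.62, 0.54, 0.86, 0.49 and 0.81 log2 units in pairs 1 to 5, in each pair by less than miR-298. Next came miR-410 of the same region (r = 0.768), rno-miR-344-3p (0.741), miR-331-3p (0.738) and miR-31 (0.733). For miR-410, r was 0.227 within the stellate samples and 0.77 within the non-stellate samples. miR-296-5p, the genomic neighbour, stood 44th with r = 0.344, or 0.575 without replicate 1. By ranks it was closer, with rho = 0.6 over the 10 samples. Within stellate and non-stellate samples its r was 0.462 and 0.65. Its rho within them was 0.8 and 0.9, beside 0.7 and 0.9 for miR-127.

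In tissue the likeness to miR-127 ended. The median-centred Ct of miR-127 was -4.45 and -4.54 there, inside its stellate range of -4.19 to -4.60, whereas miR-298 was less abundant in tissue than in every sorted sample on that scale. For miR-296-5p the most similar assays were miR-324-5p (r = 0.946), miR-125b-3p (0.896), miR-29c (0.871), miR-328 (0.869) and miR-181a (0.856). The value of miR-324-5p rests on replicate 1: without it r was -0.323. That of miR-125b-3p fell to 0.443 without replicate 1, and the others were not recomputed in this way. No likeness was computed for miR-296-3p, which was not determined in all 10 sorted samples.

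**Figure D4:**
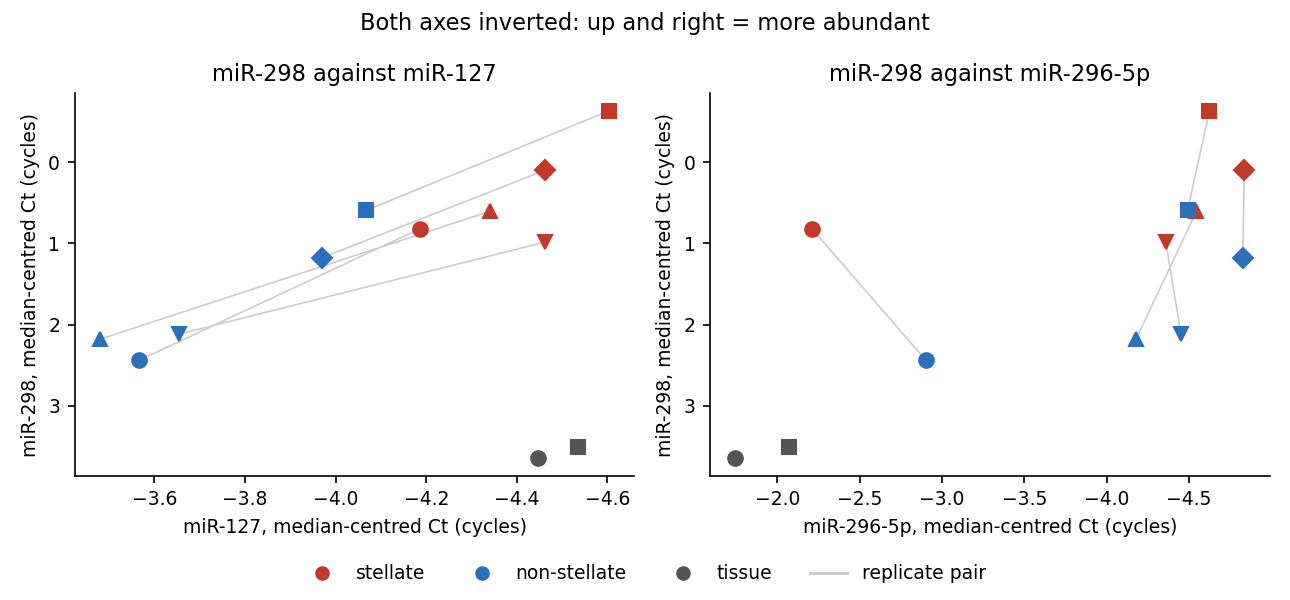
Median-centred Ct of miR-298 (vertical, cycles) against miR-127 (left) and miR-296-5p (right), both axes inverted so that up and right are more abundant; grey lines join the samples of a replicate pair. The 5 pairs run in the same direction for miR-127, and the 2 tissue samples (grey) leave that course; for miR-296-5p replicate 1 lies apart.

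Most of the other imprinted miRNAs on the card lay on the stellate side of 0, and none passed the test. Of 55 imprinted miRNA assays outside the Gnas cluster, 36 were tested, and 0 were called between stellate and non-stellate cells. Of these 36, 34 had a positive difference relative to U6 and 33 after median centring, with medians of 1.07 and 0.67. Of all 222 tested assays 163 and 117 were positive, with medians of 0.46 and 0.07. Most belong to Dlk1-Dio3, with 34 of 51 tested and 32 of them positive after median centring. Among the 27 of the list determined in all samples, the highest values after median centring were those of miR-409-3p (1.21 ± 0.48, SE), miR-376a (0.97 ± 0.55) and miR-667 (0.92 ± 0.45). The lowest were miR-495 (0.08 ± 0.21), miR-335-5p of the imprinted Mest gene (-0.57 ± 0.27) and miR-337-3p (-1.24 ± 1.14).

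In tissue, relative to U6, 31 of the 36 imprinted assays were called higher and 0 lower, with a median of 4.17 against 3.04 for the card, of which 63.2% was called higher and 0.909% lower. After median centring 15 were called higher and 4 lower, with a median of 1.18 against 0.05, where 24.1% and 25% of the card were called. With tissue entered as 1 sample on that scale 9 of the 36 were called, and 64 of 220 on the card. Without tissue sample 1 the count relative to U6 was 20, and 97 on the card. The highest by limma after median centring were miR-376a (4.97 ± 0.64, SE, adjusted p = 9.43e-05), miR-410 (3.88 ± 0.38, adjusted p = 1.56e-05) and miR-335-5p (3.33 ± 0.30, adjusted p = 1.05e-05). The lowest were miR-134 (-1.97 ± 0.57, adjusted p = 0.0152), miR-370 (-2.38 ± 0.31, adjusted p = 0.000105) and miR-770-3p (-2.74 ± 0.44, adjusted p = 0.000428). On that scale miR-298 and miR-296-5p had -2.53 and -2.24. Age, dissociation and sorting cannot be told apart here.

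Of 7 other miRNAs known to act on Bace1, 0 were called between stellate and non-stellate cells, with median-centred differences from -0.91 for miR-195 to 2.44 for miR-29b. In tissue all 7 were called higher relative to U6, as were 63.2% of all tested assays. After median centring, with 24.1% of the card called higher, 4 were: miR-29b (6.64), miR-29c (6.03) and miR-29a (4.77), which share a seed, and miR-124 (1.27), the abundant neuronal miRNA. miR-195 (0.63), miR-107 (-0.21) and miR-328 (-0.76) were not called on that scale. With tissue entered as 1 sample 3 of the 7 were called higher, and 26 of 220 on the card. Of the pair that acts with miR-296 on Nanog, miR-134 had stellate minus non-stellate differences of 1.23 relative to U6 and 0.84 after median centring, neither called. In tissue it had 1.02 relative to U6, not called, and -1.97 after median centring by limma (adjusted p = 0.0152, and 0.0995 with tissue as 1 sample), beside 0.75 and -2.24 for miR-296-5p. miR-470 was undetermined too often to be tested.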

How the data were processed

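Small RNA from 12 samples was reverse transcribed with Megaplex primers, pre-amplified and read on TaqMan Rodent card A by the authors, with Ct called in ViiA7 Software 1.2. The authors' deposited raw table holds Ct on a log2 scale without normalization and 40 in undetermined wells. Their deposited normalized table holds log2 values equal to Ct minus the mean of the 4 U6 wells (largest difference 7.1e-15). Fold changes, p-values and scores from the authors' own comparisons were not used.

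Groups came from titles, sources and fluorescence. U6-scaled values were used as deposited, with median centring and 4 other reference RNAs computed from the raw table. An assay was tested when undetermined in at most 3 samples of a fit, with limma 3.58.1 in R 4.3.3 (lmFit, eBayes, Benjamini-Hochberg, threshold 0.05). The fit of sorted cells held 10 samples and no block, since the study's methods name none, and the fit with tissue held all 12. The scripts were tested on simulated data. The p-values set a difference against the spread between samples of the same group. In the fit with tissue that spread came mostly from the 10 sorted samples. The part from tissue may be technical, so the spread between animals in tissue may not enter.

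Numbers 1 to 5 were taken as pairs, since the labels describe labelled and unlabelled cells of the same 5 biological replicates; deviations from group means correlated within pairs at 0.331, 0.119, 0.256, 0.155 and 0.074, against a mean of -0.0481 between different numbers. Named miRNAs are the members, the Bace1 and Nanog lists, the 3 highest and 3 lowest imprinted assays after median centring that were determined in all 12 samples, and the 5 assays most like each member. Members and lists were chosen with earlier results of these data known. Sequences were read from RefSeq tables (GRCr8).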

Additional observations from a re-analysis of the deposited data

Results flagged for a closer look

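In groups of 5 samples the most extreme sample was set against the spread of the rest (Dixon's criterion). This was done for each member on 3 scales, their gaps within a sample and the measures of the card. Of 26 groups examined, 7 had such a sample, where about 1.3 would by chance if the groups were independent. They were not, since the same wells recur on 3 scales, so nothing is read from that comparison. miR-296-5p was far less abundant in stellate sample 1 than in the other 4 after median centring, at -2.209. For miR-296-3p, 5 of the 7 are undetermined wells at the placeholder: stellate sample 1 at 23.179 relative to U6 and 11.83 after median centring, and non-stellate sample 5 at a Ct of 40, at 19.767 relative to U6 and at 9.059 after median centring. Among the stellate samples the median Ct of the card was highest in sample 3, at 29.51.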

How the results depend on the processing

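The stellate minus non-stellate difference of miR-298 was positive under all 6 alternatives and every omission of a sample (1.26 to 2.06). With the replicate block, which uses the pairing, it was 1.72 and limma called 0 assays, and no other call changed. Omissions gave 0.01 to 0.98 for miR-296-5p, -0.86 to 2.35 for miR-296-3p, and a count of 0 to 0 assays. In tissue the scale decided: after median centring the differences were -2.53 for miR-298 and -2.24 for miR-296-5p. Against stellate or non-stellate cells alone on that scale, settings added after the data were seen, they were -3.20 and -1.87, and -2.21 and -2.26. Omissions gave 0.24 to 0.68, 0.44 to 0.92 and, for miR-296-3p, -10.21 to -8.77. That value was -5.17 with Ct capped at 35, and leaving undetermined wells out gave none. The 141 tissue calls (139 higher, 2 lower) became 108 (53 and 55) after median centring, 238 without the filter, which tests 375 assays, 64 after median centring with tissue as 1 sample (also added later), and 97 to 145 with a sample left out. The imprinted count of 31 became 19 and 9, and 20 to 32, and the Bace1 count of 7 became 4 and 3, and 5 to 7. Where no construction is named, the cause was not tested. An undetermined well gives no level of its own, which limits miR-296-3p in 4 of the 12 samples.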
